A study of Mus musculus with 18 samples.

Results

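The genes described here encode the machinery by which excitatory synapses of the brain sense glutamate. They are 38 of the 54532 genes in the deposited table: 22 receptor genes (4 AMPA, 5 kainate, 7 NMDA and 6 metabotropic) and 16 genes of the postsynaptic scaffold and its kinase (4 Dlg, 4 Dlgap, 3 Shank, 3 Homer and 2 CaMKII genes). They were chosen by gene symbol from these families, and each symbol matched exactly 1 Ensembl gene. RNA was measured in the frontal cortex of newborn mice (P0), from controls and from pups mutant for both RXRg and RARb (dKO), whose genes Rxrg and Rarb encode nuclear receptors for retinoids. Orbital, medial and dorsal tissue was taken from each genotype, which gives 6 groups of 3 libraries and 18 libraries in all. The labels give the 9 control libraries no further genotype. They state neither strain, sex, litter nor the altered exons, and they leave it unsaid whether a library holds RNA of a single pup or of several. The dissection notes name medial frontal, motor and orbitofrontal tissue, so the area behind the label dorsal is not spelled out. By title prefix and index, the libraries fall into 6 rows of 3 regions, and the rows into 3 sets of 1 control and 1 dKO row, numbered here as replicates 1, 2 and 3. Sets 2 and 3 share a prefix, so which control row goes with which dKO row there rests on the order of the labels. Differences between genotypes within a set are therefore given as description, and the main tests do not pair them. Where rows or regions share a brain is not stated either, so the p-values measure the spread between these libraries, which may be technical.

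AMPA and kainate receptors are fast ion channels. NMDA receptors are channels that need glutamate and a co-agonist to open and let calcium in, and metabotropic receptors signal through G proteins, some of them on the presynaptic side. Dlg proteins anchor the receptors, Dlgap and Shank proteins stack beneath them, Homer proteins link this stack to metabotropic receptors, and CaMKII is the kinase that reads the calcium signal. In the cortex much of this set is still being built at birth, and the subunit makeup of the receptors changes during the weeks that follow.

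The libraries held 28957325 to 93093398 counted fragments, with the deepest in set 1. Rarb was at 3.50 to 13.9 CPM (a gene's share of all counted fragments, scaled to a common total) in controls and 1.19 to 4.85 CPM in dKO libraries, with the dKO library below its set's control of the same region in 9 of 9 cases. Rxrg was at 1.64 to 30.5 CPM in controls and 0.377 to 2.90 CPM in dKO libraries, below it in 8 of 9 cases. Averaged over regions, Rarb differed by -0.45, -1.69 and -1.52 on the log2 scale in sets 1, 2 and 3. The same average for Rxrg was -0.49, -3.32 and -2.68, so the genes named in the labels differed least in set 1. Sex moved with genotype in sets 1 and 3: Xist was at 9.45 to 31.4 CPM in their dKO libraries and at most 0.155 CPM in all other libraries. Neuron markers were abundant in every library (Tubb3 1840 to 3690 CPM, Snap25 307 to 541 CPM), as was Neurod6 (848 to 1830 CPM) of forebrain excitatory neurons.

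Because the mutated receptors bind DNA at short repeats of a 6-base motif, the sequence before the start sites of the members was read from the RefSeq promoter table (build GRCm38.p6). The table holds 26 of the 38 members, with 40 start sites. The motif was searched as AGGTCA, with AGTTCA as its first variant, GGGTCA as another and then GGTTCA, on both strands of the 250 bases before each start, and overlapping matches were counted. Of the 40 member starts, 9 (22.5%, from 8 genes) held at least 1 match, against 38.6% of all 32851 starts in the table. A direct repeat of the motif with 1, 2 or 5 bases between the copies was in 0 member starts and in 0.426% of all starts. The sequences of Grm7 and Grm2 are shown because these genes carry the clearest differences between genotypes and between regions below, and that of Dlgap1 because it differed between regions and holds a match. All are printed 5′ to 3′ on the strand of the gene in lower case, with a match in capitals.
Grm7, chr6:110645262-110645511, plus strand: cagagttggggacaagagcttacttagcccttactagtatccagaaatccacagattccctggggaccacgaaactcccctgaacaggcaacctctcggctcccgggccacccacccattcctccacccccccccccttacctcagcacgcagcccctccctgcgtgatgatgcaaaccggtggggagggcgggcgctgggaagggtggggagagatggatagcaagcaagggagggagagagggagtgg
Grm2, chr9:106656110-106656359, minus strand: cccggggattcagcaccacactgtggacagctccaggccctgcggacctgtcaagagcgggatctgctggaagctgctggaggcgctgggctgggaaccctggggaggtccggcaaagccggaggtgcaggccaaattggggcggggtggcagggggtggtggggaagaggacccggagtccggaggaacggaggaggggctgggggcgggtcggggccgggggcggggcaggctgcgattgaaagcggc
Dlgap1, chr17:69968823-69969072, plus strand: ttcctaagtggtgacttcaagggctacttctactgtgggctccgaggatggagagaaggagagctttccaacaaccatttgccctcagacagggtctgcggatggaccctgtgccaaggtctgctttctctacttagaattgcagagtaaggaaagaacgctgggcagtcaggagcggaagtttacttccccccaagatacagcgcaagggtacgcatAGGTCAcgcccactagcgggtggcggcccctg
The printed windows of Grm7 and Grm2 hold 0 matches and the printed window of Dlgap1 holds 1. Dlgap1 has another start among the 40, with a window at chr17:70561497-70561746 that holds 2 matches. Grm7 also has another, whose window holds 0. These counts describe letters in these windows and not the binding of a receptor.

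Levels were compared between genes as RPKM, the CPM value divided by the gene's deposited exon length in kilobases. This length merges all exons of a gene and can exceed that of its transcripts, so the order of genes depends on it. By RPKM the ionotropic receptor genes were led by Gria1, the AMPA subunit GluA1, at 28.2 ± 6.76 RPKM over the 9 control libraries (mean ± SD). Gria2, whose edited subunit makes AMPA receptors tight to calcium, was at 14.8 ± 6.04 RPKM, Gria4 at 9.83 ± 1.2 and the X-linked Gria3 at 4.95 ± 1.32. Of the kainate subunits Grik5 was highest at 13.8 ± 1.71 RPKM, while Grik1 to Grik4 lay between 2.46 and 4.32 RPKM. Grin3a, an NMDA subunit that lowers calcium flow, was at 6.44 ± 1.94 RPKM and the obligatory subunit gene Grin1 at 6.30 ± 1.64, less than their SD apart. Grin2b was at 2.54 ± 0.92 RPKM, Grin2d at 1.58 ± 0.454 and Grin2a, which takes over from Grin2b as the cortex matures, at 0.310 ± 0.151. Grin2c and Grin3b were near the floor, at 0.0232 and 0.0306 RPKM, with libraries at 0 counts for each.

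Grm3, a receptor that lowers cyclic AMP and is also made by astrocytes, was the second most abundant member at 31.5 ± 9.91 RPKM. Grm5, which activates phospholipase C, was at 16.7 ± 5.48, Grm2 at 10.5 ± 7.29 and Grm7, a presynaptic receptor of low affinity for glutamate, at 4.24 ± 1.24 RPKM. Grm4 and Grm8 were under 1 RPKM on average (0.624 ± 0.238 and 0.687 ± 0.285). In the scaffold Dlg3 (SAP102) led its family at 21.4 ± 7.01 RPKM, before Dlg2 (PSD-93) at 8.53 ± 3.46, Dlg4 (PSD-95) at 2.42 ± 0.697 and Dlg1 at 1.54 ± 0.36. Dlgap4 was at 16.9 ± 2.13, Dlgap1 at 12.4 ± 2.46, Dlgap3 at 7.49 ± 1.69 and Dlgap2 at 2.42 ± 0.874 RPKM. Shank2 stood at 5.48 ± 1.79, Shank1 at 2.31 ± 0.562 and Shank3 at 0.762 ± 0.214 RPKM, and Homer1, Homer3 and Homer2 at 7.54 ± 1.9, 4.61 ± 0.45 and 2.32 ± 0.62 RPKM. Camk2b, the beta subunit of CaMKII, was the highest of all 38 members at 73.9 ± 15 RPKM, and Camk2a, the alpha subunit that dominates the adult cortex, was at 1.93 ± 0.784.

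**Figure D1:**
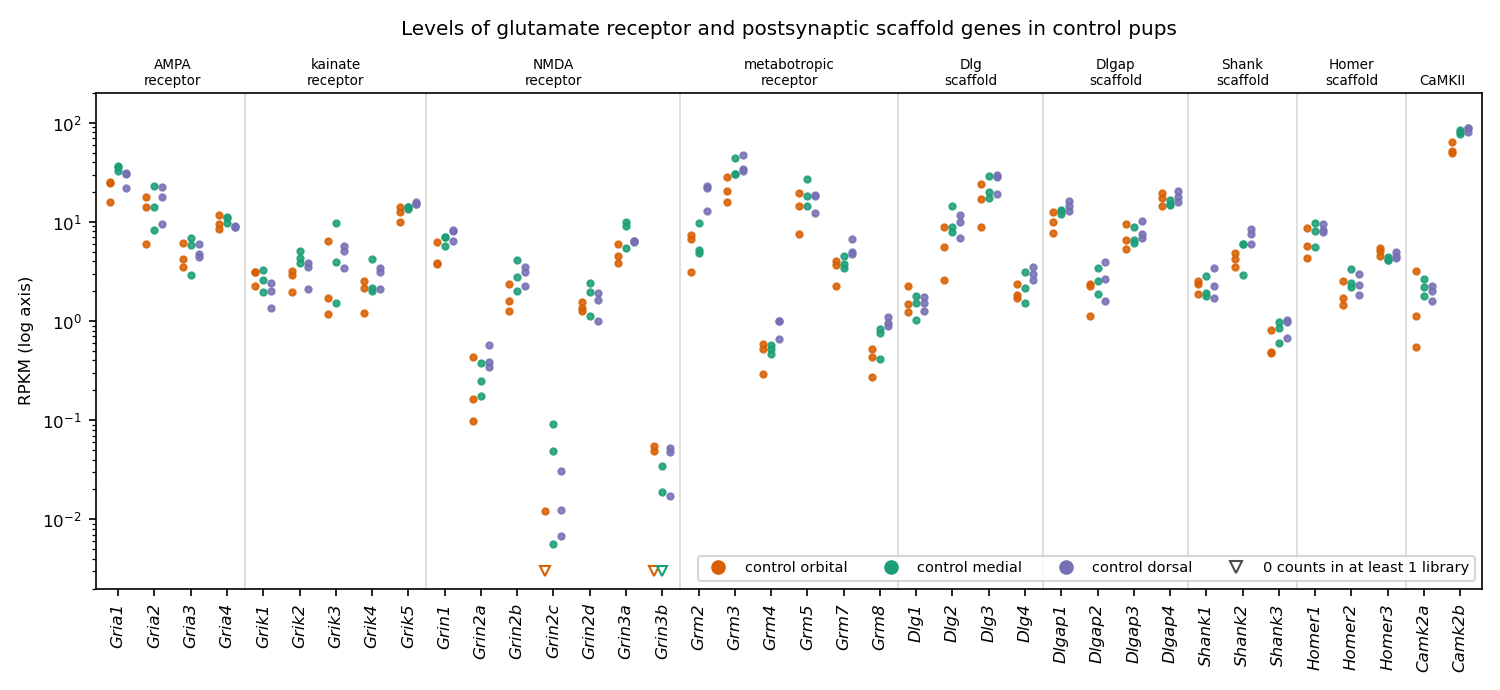
RPKM of each member (log axis) in the 9 control libraries, 1 point per library, coloured by region and grouped by class. Open triangles mark regions in which at least 1 library had 0 counts. Camk2b lies at the top (mean 73.9 RPKM), and Grin2c and Grin3b lie at the bottom (means 0.0232 and 0.0306 RPKM).

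By RPKM, in 5 of 6 pairs of related members the same gene was higher in all 18 libraries. The ratio of Grin2a to Grin2b had a median of 0.112 and ran from 0.0415 to 0.348, so that Grin2b was higher in each library. The ratio of Dlg4 to Dlg3 had a median of 0.122 (0.0762 to 0.207), and that of Camk2a to Camk2b a median of 0.0251 (0.0109 to 0.0606). Homer2 to Homer1 had a median of 0.308 (0.175 to 0.418), and Gria1 to Gria2 one of 2.23 (1.36 to 4.35). The order of Gria1 and Gria2 rests on their deposited lengths of 6043 and 15548 bases. In mean CPM Gria2 was the higher of these in orbital (196 against 133), medial (235 against 210) and dorsal controls (259 against 168). It was the lower in medial dKO tissue (155 against 171). The exception among the 6 pairs was Grin3a to Grin1, whose ratio lay on both sides of 1, with a median of 0.955 (0.671 to 1.48). These ratios are given as a description, with no test of genotype or region.

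In medial cortex, 2 of the 37 members tested fell in dKO and both are receptor genes: Grm7 and Grin3a. This compares with 0.897% of the 18730 genes tested that were lower in dKO at an adjusted p under 0.05 (edgeR quasi-likelihood test, Benjamini-Hochberg over all genes). Of the 37 log2 fold changes, 33 were negative, with a median of -0.56, where 50.4% of all genes were negative with a median of 0.0. At an unadjusted p under 0.05 there were 16 members, all with negative fold changes, or 43.2%, against 15% of all genes in either direction. Every class had a negative median: -0.79 for the 6 metabotropic genes, -0.74 for the 6 NMDA genes tested, -0.68 for Shank, -0.53 for CaMKII, -0.46 for Dlgap, -0.39 for AMPA and for Dlg, -0.31 for kainate and -0.20 for Homer. In bulk tissue such values cannot tell fewer cells of a type from less RNA per cell.

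Grm7 (ENSMUSG00000056755, GRCm38 chromosome 6, 110645581 to 111567230, plus strand) had 3.39, 4.57 and 3.80 RPKM in the medial controls of sets 1, 2 and 3. The medial dKO libraries had 2.80, 1.29 and 1.04 RPKM. The groups did not overlap, and the dKO library of set 1 lay closest to the controls. The log2 fold change was -1.46 (SE 0.293, adjusted p = 0.0191), and within sets 1, 2 and 3 it was -0.46, -1.89 and -1.86. Set 1 was also the set in which Rarb and Rxrg differed least, and a link between these values was not tested. Grin3a (ENSMUSG00000039579, chromosome 4, 49661611 to 49845744, minus strand) had 5.41, 9.85 and 9.09 RPKM in medial controls and 5.09, 3.85 and 3.10 RPKM in medial dKO libraries. Here too the groups did not overlap, by a small gap in set 1, and the log2 fold change was -1.15 (SE 0.266, adjusted p = 0.0353; -0.28, -1.42 and -1.55 within the sets). With edgeR the count of 2 rested on single libraries: it was 0 without control replicate 2 or 3 or any of dKO replicates 1, 2 and 3, and 3 without control replicate 1. The count of all genes that were lower moved too. It was 168 in the main fit, 17 to 61 in the fits with 0 members and 188 without control replicate 1. The count of members was also 0 when the spread came from the 6 medial libraries alone or when the title prefix was left out of the fit, and 1 (Grm7) with a term for sex. In those fits 3, 51 and 66 of all genes were lower. Grm7 passed in 7 and Grin3a in 6 of 14 alternatives, each negative in all 14.

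No other member passed in medial cortex. The share of all genes whose groups do not overlap was not computed, so a lack of overlap is given here and elsewhere as description only. Grin1, which every NMDA receptor contains, had 5.68, 7.06 and 7.09 RPKM in controls and 4.13, 4.03 and 4.63 RPKM in dKO, without overlap (log2 fold change -0.71, SE 0.197, adjusted p = 0.0721). A stretch of 13.5% of its exons is shared with the antisense gene Grin1os, whose reads the unstranded counts cannot separate. Camk2b had 77.3, 80.0 and 84.6 RPKM against 43.3, 62.8 and 68.8, also without overlap (-0.55, SE 0.17, adjusted p = 0.113). For Shank1 the controls had 1.93, 2.82 and 1.80 RPKM and the dKO libraries 1.25, 1.42 and 1.33 (-0.80, SE 0.261, adjusted p = 0.133). The groups of Shank1 did not overlap either. A lower dKO value in every set follows from this for these 3 genes and is no further evidence.

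For Grik2, a kainate subunit, the controls had 4.31, 5.07 and 3.86 RPKM and the dKO libraries 4.08, 2.86 and 2.17, with overlap (-0.68, SE 0.237, adjusted p = 0.163). Dlgap3 had 6.07, 6.59 and 8.86 RPKM against 4.75, 5.22 and 5.28, without overlap (-0.57, SE 0.219, adjusted p = 0.209). Dlg2 had 8.77, 14.6 and 7.94 RPKM against 7.65, 6.27 and 5.62, where every dKO library was below every control (-0.78, SE 0.351, adjusted p = 0.3). Gria1 had 35.9, 32.2 and 36.3 RPKM against 26.6, 29.7 and 28.8, again without overlap (-0.36, SE 0.18, adjusted p = 0.360). Of the most abundant members per class not yet described, none passed: the log2 fold change was -0.28 (SE 0.158) for Grik5, -0.44 (SE 0.316) for Grm3, -0.61 (SE 0.285) for Dlg3, -0.28 (SE 0.148) for Dlgap4, -0.16 (SE 0.195) for Shank2 and -0.21 (SE 0.227) for Homer1. The 4 positive members were Homer3 (0.34, SE 0.171, adjusted p = 0.366), Dlg1 (0.07), Grik3 (0.02) and Grin2c, whose counts were too low for a stable ratio. Homer3 had 4.09, 4.43 and 4.12 RPKM in controls and 6.62, 4.99 and 5.43 in dKO, every dKO library above every control, and shares 25.4% of its exon bases with Ddx49 on the other strand. Within the sets, 30, 34 and 30 of the 37 members were lower in dKO, with medians of -0.35, -0.75 and -0.38, and 25 were lower in all 3 sets. The share of all genes with the same sign in all 3 sets was not computed, so these counts are description only.

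Cell type markers moved in the same medial libraries. The summed level of 10 neuron markers was 7090 to 8340 CPM in controls and 5850 to 6280 CPM in dKO, a log2 ratio of -0.35, with 0 of 10 past the test. All 10 had negative fold changes, with a median of -0.37. At an unadjusted p under 0.05 there were 4 (40%), near the 43.2% of the members, against 15% of all genes. The sum of 12 progenitor and cycling markers was 560 to 626 CPM in controls and 920 to 1450 CPM in dKO (log2 ratio 0.98), and 6 of the 12 rose: Cdk1, Pax6, Vim, Ccnb1, Eomes and Mki67. Of all genes 1.18% were higher in medial dKO by this test. Of 7 astrocyte markers 2 rose, Aldoc (1.22, SE 0.29) and Mlc1 (1.29, SE 0.309), and their sum was 316 to 1030 CPM in controls and 877 to 1410 CPM in dKO. No marker of these lists was at 0 throughout a group. The part of these shifts in the values of the members was not tested. Beyond the members, 14 auxiliary subunits of the receptors had a median of -0.35 with 0 past the test, and 23 other postsynaptic genes a median of -0.33 with 20 negative. At an unadjusted p under 0.05 were 7 of the 14 (50%, 6 lower and 1 higher) and 9 of the 23 (39.1%, 8 lower and 1 higher). Of these 23, Cnksr2, a scaffold that binds Dlg proteins, fell (-0.77, SE 0.178, adjusted p = 0.0346). Of 7 genes that supply or clear glutamate, 3 had negative fold changes and 0 passed.

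**Figure D2:**
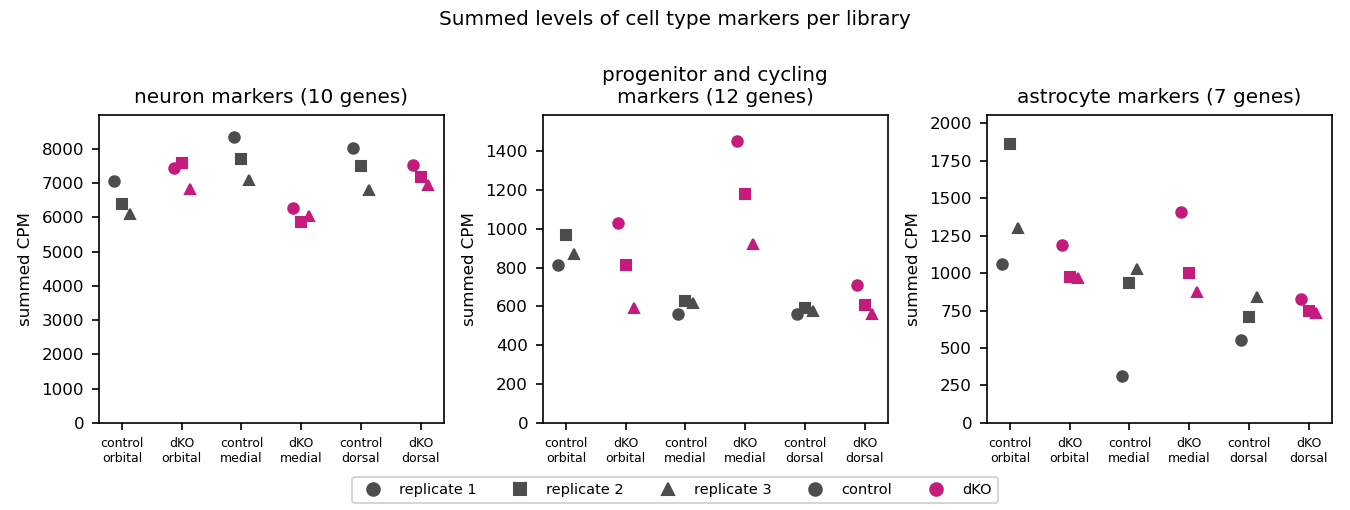
Summed CPM of neuron, progenitor and astrocyte markers in each of the 18 libraries, by group, with the replicate given by the symbol. In medial tissue the neuron sum was 7090 to 8340 CPM in controls and 5850 to 6280 CPM in dKO, and the progenitor sum 560 to 626 and 920 to 1450 CPM.

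In orbital cortex more members had positive than negative fold changes, and none passed. With edgeR 0 of 37 members passed, against 0.0374% of all genes, and 24 had positive fold changes, with a median of 0.13 (all genes -0.03). At an unadjusted p under 0.05 there were 5 members, or 13.5%, against 13.9% of all genes: Shank2 (0.54, SE 0.196), Dlgap1 (0.39), Gria1 (0.40, SE 0.18), Grm7 (-0.61, SE 0.287) and Grin2c. DESeq2 called 1 member, Grin2c, where it called 2.35% of the genes it tested. Grin2c, an NMDA subunit best known from the cerebellum, had 0, 0 and 0.0608 CPM in orbital controls and 0.796, 1.48 and 0 CPM in orbital dKO libraries, from at most 46 fragments there. Shank2 had 4.24, 4.80 and 3.54 RPKM in controls and 4.75, 7.54 and 6.63 RPKM in dKO, with overlap. Of the members most abundant in their class, Camk2b was at 0.24 (SE 0.17), Grm3 at 0.35 (SE 0.316), Grin3a at 0.41 (SE 0.262), Grik5 at 0.15, Dlg3 at 0.11, Homer1 at 0.08 and Dlgap4 at -0.20 on the log2 scale, at adjusted p from 0.498 to 0.904. Of the markers, 8 of 10 for neurons and 7 of 7 for cortical excitatory neurons had positive fold changes (medians 0.12 and 0.35). So did 8 of 12 progenitor and cycling markers. All 7 microglia and all 6 meningeal markers had negative ones (medians -0.60 and -0.55). In each of these lists 0 passed, and their part in the values of the members was not tested.

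In dorsal cortex 35 of 37 members had negative fold changes, with a median of -0.29 (all genes -0.01). With edgeR 0 passed, against 0.0214% of all genes, and with DESeq2 also 0, against 0.443%. At an unadjusted p under 0.05 there were 5, or 13.5%, against 6.78% of all genes. These were Grm7 (-0.87, SE 0.287, adjusted p = 0.525), Grm4 (-0.93, SE 0.331), Grm2 (-0.69, SE 0.313), Dlgap3 (-0.51, SE 0.219) and Grin1 (-0.44, SE 0.196), so that 3 of the 5 are metabotropic receptors. Grm7 had 6.72, 4.93 and 4.79 RPKM in dorsal controls and 5.86, 1.96 and 2.39 in dorsal dKO libraries, where the set 1 library overlapped the controls. Within sets 1, 2 and 3 its log2 difference was -0.30, -1.33 and -0.97 in dorsal tissue, and -0.13, -0.90 and -0.66 in orbital tissue. Of the class leaders, Gria1 was at -0.28 (SE 0.18), Grin3a at -0.43 (SE 0.263), Grik5 at -0.25, Dlg3 at -0.40, Dlgap4 at -0.22, Camk2b at -0.13, Homer1 at -0.11, Grm3 at -0.08 and Shank2 at -0.03. In the same tissue 8 of 10 neuron markers had negative fold changes (median -0.18). Of 12 progenitor and cycling markers 10 had positive ones (median 0.42), with 0 of either list past the test. Their part in the values of the members was not tested.

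With the 3 regions of each row summed, 0 of 38 members passed with edgeR, against 0.0249% of 20083 genes. There were 33 with negative fold changes, a median of -0.19 (all genes -0.03), and 5 at an unadjusted p under 0.05, or 13.2%, against 9.03% of all genes. Grm7 had the lowest p, at -0.94 (SE 0.242, adjusted p = 0.382), and was the 1 member that DESeq2 called, where it called 1.74% of all genes. The mean of its 3 regional log2 differences was -0.30, -1.37 and -1.16 in sets 1, 2 and 3, which are not values of the summed counts. The other 4 were Grin2c, Shank1 (-0.56, SE 0.202), Grin1 (-0.36, SE 0.141) and Dlgap3 (-0.46, SE 0.192). Grin3b, tested only here, held 0 to 12 fragments per library.

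**Figure D3:**
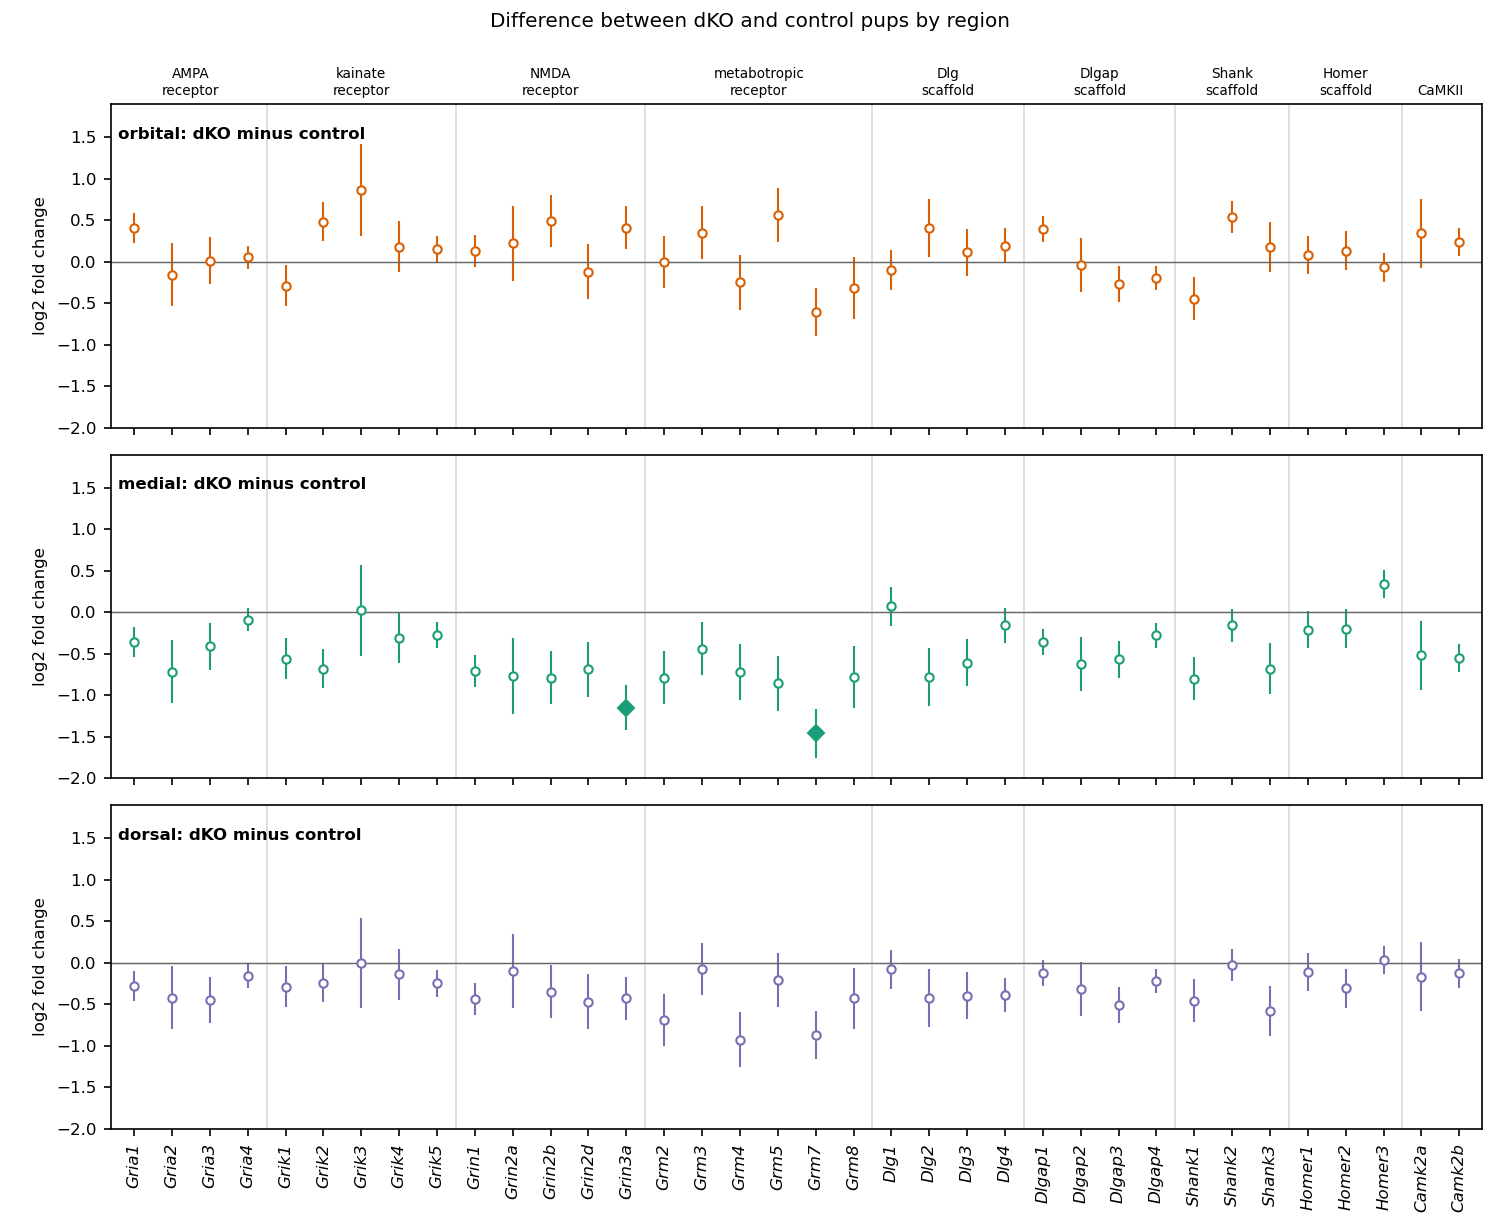
Log2 fold change of dKO minus control for 36 members in orbital, medial and dorsal tissue (3 libraries a group), with bars of 1 SE. Filled diamonds passed the test, open circles did not, and Grin2c and Grin3b are left out for their low counts. The medial values lie mostly below 0, with Grm7 (-1.46) and Grin3a (-1.15) filled.

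The difference between dKO and control pups, called the effect below, was then compared between regions. It was taken as the dKO difference in one region minus that in another, with the row as a block. Sex moved with genotype in sets 1 and 3, so their parts cannot be told apart in those sets. Between medial and orbital tissue 35 of 37 differences were negative, with a median of -0.69 (all genes 0.01), and 4 members passed, all with the lower value in medial tissue: Grik2, Dlg2, Grin3a and Camk2b. Of all genes 0.785% passed in that direction. The 21 receptor genes tested were all on the negative side, and the class medians ran from -0.29 for Homer to -1.19 for NMDA receptors. Grik2 (ENSMUSG00000056073, chromosome 10, 49094833 to 49788766, minus strand) had 2.94, 3.20 and 1.96 RPKM in orbital controls and 5.69, 3.59 and 2.44 in orbital dKO, higher in dKO in each set. In medial tissue it was lower in dKO in each set (values above), and the difference of effects was -1.15 (SE 0.200, adjusted p = 0.0278; -1.18, -1.15 and -1.23 within the sets).

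Dlg2 (ENSMUSG00000052572, chromosome 7, 90476672 to 92449247, plus strand) had 5.55, 8.94 and 2.6 RPKM in orbital controls and 8.70, 8.73 and 5.09 in orbital dKO libraries. Its difference of effects was -1.23 (SE 0.249, adjusted p = 0.0324; -1.0, -1.34 and -1.55). Grin3a had 6.02, 4.57 and 3.88 RPKM in orbital controls and 8.88, 6.93 and 3.74 in orbital dKO, with a difference of -1.47 (SE 0.305, adjusted p = 0.0346; -0.80, -2.11 and -1.58). Camk2b (ENSMUSG00000057897, chromosome 11, 5969644 to 6066362, minus strand) had 63.6, 52.1 and 49.8 RPKM in orbital controls and 63.6, 71.0 and 62.5 in orbital dKO, with a difference of -0.83 (SE 0.177, adjusted p = 0.0396; -0.99, -0.95 and -0.70). In each of the 4 the orbital groups overlapped, and the sign of the difference was shared by the 3 sets. That sign comes from the libraries by which the 4 were picked and is description only. Just short of the threshold were Grm5 (-1.43, SE 0.350, adjusted p = 0.0566), Grin2b (-1.22, SE 0.308, adjusted p = 0.0611) and Dlgap1 (-0.75, SE 0.197, adjusted p = 0.0660). The count was 0 without control row 2 or 3 or dKO row 1 or 2, 7 without dKO row 3, 13 without control row 1 and 0 with no row block. Of all genes, 912 of 19130 were lower without control row 1 and 249 of 19375 without dKO row 3. Without control row 2 there were 4, and 0 in each of the other fits named, so the count of members moved with that of all genes. Among the markers, Fabp7 (1.20), Vim (0.89) and Cdk1 (0.91) of progenitors and Tmem119 (1.84) of microglia passed in the opposite direction. Tubb3 (-0.72) and Dcx (-1.16) of neurons passed in the same direction. Their part in the result was not tested. Of the other postsynaptic genes, Cnksr2 (-0.99) and Ppp1r9a (-0.82) passed.

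Between orbital and dorsal tissue 33 of 37 differences of effect were positive, with a median of 0.42. With edgeR 0 members passed, as did 0% of all genes, and 12 were at an unadjusted p under 0.05, or 32.4%, against 12.6% of all genes. DESeq2 called 2 of them, Dlg2 and Grik2, with 1.86% of all genes. Dlg2 was at 0.94 (SE 0.249, adjusted p = 0.207 with edgeR) and Grik2 at 0.70 (SE 0.200, adjusted p = 0.232). Between medial and dorsal tissue 28 differences were negative, with a median of -0.19. There 0 members and 0% of all genes passed with edgeR, 3 members (8.11%) were at an unadjusted p under 0.05 against 5.17% of all genes, and DESeq2 called 0 members and 1.01% of all genes. The 3 were Camk2b (-0.45, SE 0.177), Grin3a (-0.68, SE 0.302) and Grik2 (-0.45, SE 0.200).

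**Figure D4:**
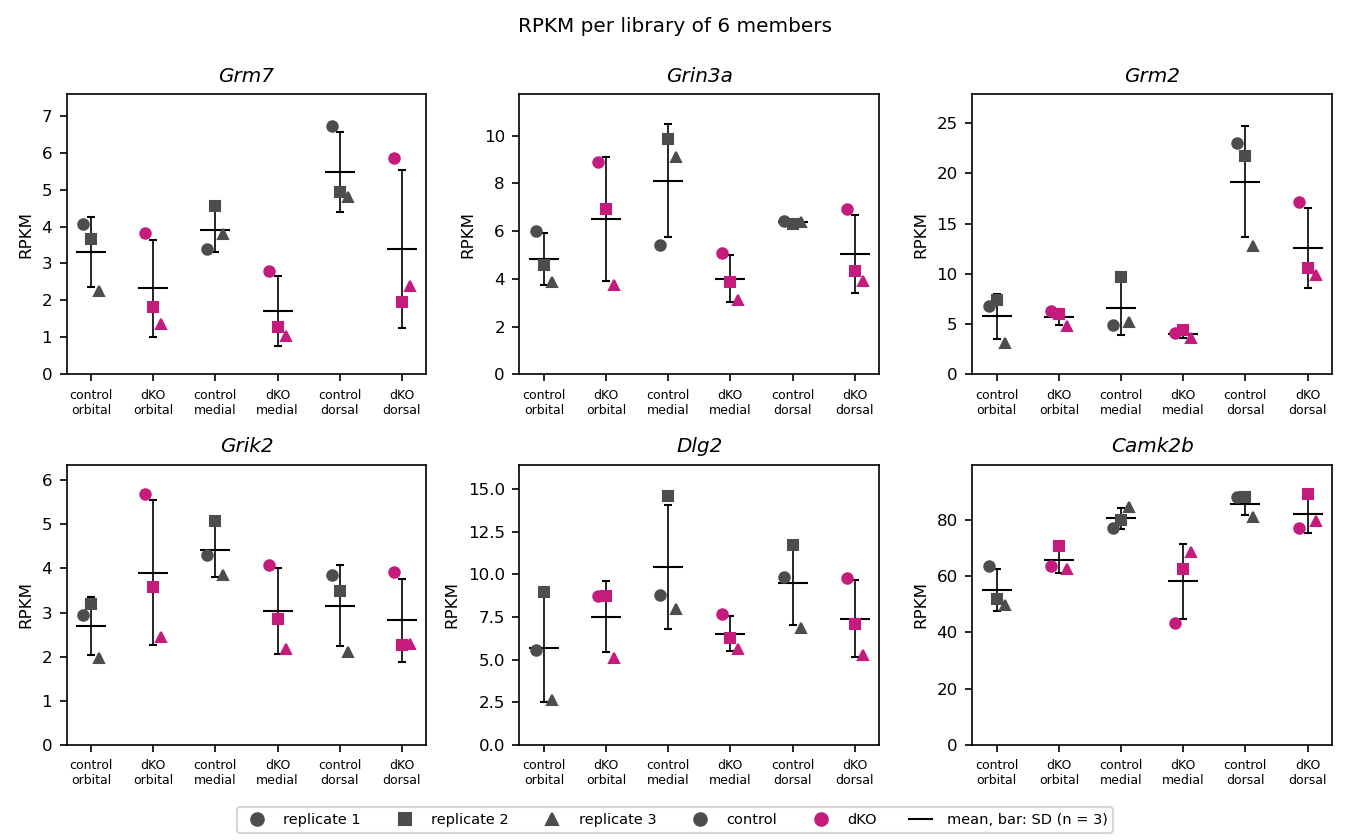
RPKM of Grm7, Grin3a, Grm2, Grik2, Dlg2 and Camk2b in each of the 18 libraries, by group, with the mean and SD of 3 libraries. In medial tissue the dKO points of Grm7 (1.04 to 2.80 RPKM) lie below those of controls (3.39 to 4.57 RPKM), and Grm2 is highest in dorsal controls (12.8 to 23 RPKM).

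Among control pups, which show how the members are laid out across the frontal cortex, orbital tissue stood apart. With the row as a block, 17 of 37 members were lower in orbital than in dorsal controls and none was higher. Of all genes 9.44% were lower by this test. Of the members 33 had negative differences, with a median of -0.64 against 0.03 for all genes, and each of the 17 was lower in all 3 sets. The sets hold the libraries of the test itself, so this shared sign is description only. By class, 5 of 6 metabotropic receptors, 2 of 6 NMDA, 1 of 4 AMPA and 0 of 5 kainate receptor genes were lower, with 3 of 4 Dlg, 2 of 4 Dlgap, 2 of 3 Shank, 1 of 3 Homer and 1 of 2 CaMKII genes. At an unadjusted p under 0.05 there were 27 members (73%), 26 lower and 1 higher, against 30.2% of all genes. They included all 5 kainate genes, 4 lower and 1 higher.

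Grm2, which damps transmitter release, had the largest difference among the 17. It (ENSMUSG00000023192, chromosome 9, 106643095 to 106656082, minus strand) had 6.76, 7.35 and 3.14 RPKM in orbital controls and 23, 21.7 and 12.8 RPKM in dorsal controls, without overlap (-1.89, SE 0.213, adjusted p = 0.000573). Of its exon bases 9.60% are shared with Gm28111 on the other strand. Grm3 had 20.3, 28.5 and 16.0 RPKM against 34.2, 47.4 and 32.4 (-0.94, SE 0.167, adjusted p = 0.00399). Grm8 had 0.524, 0.430 and 0.273 RPKM against 0.894, 1.10 and 0.954 (-1.43, SE 0.280, adjusted p = 0.00608). For Grm3 and Grm8 every orbital control was below every dorsal control, and the same held for Grm7 and Grm4. Grm7 had 4.06, 3.65 and 2.25 RPKM against 6.72, 4.93 and 4.79 (-0.85, SE 0.194, adjusted p = 0.0112). Grm4, at a lower level, had 0.585, 0.516 and 0.295 RPKM against 0.997, 1.01 and 0.659 (-1.06, SE 0.261, adjusted p = 0.0158).

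Of the ion channel subunits, Gria2 had 14, 17.9 and 6.01 RPKM in orbital and 17.7, 22.7 and 9.50 in dorsal controls (-0.55, SE 0.125, adjusted p = 0.0109). Grin1 had 6.29, 3.82 and 3.80 against 8.17, 6.45 and 8.32 RPKM (-0.84, SE 0.195, adjusted p = 0.0122). Grin2b had 1.58, 2.35 and 1.25 against 3.09, 3.50 and 2.26 RPKM (-0.92, SE 0.217, adjusted p = 0.0134). Of these 3, Grin1 had separate groups, and the groups of Gria2 and Grin2b overlapped. In the kainate family Grik1 went the other way without passing (0.45, SE 0.172, adjusted p = 0.0902), and Grik5 was at -0.44 (SE 0.146) and Grik3 at -1.19 (SE 0.415), also without passing.

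In the scaffold, Camk2b had 63.6, 52.1 and 49.8 RPKM in orbital and 88.4, 88.2 and 81.3 in dorsal controls, without overlap (-0.75, SE 0.125, adjusted p = 0.00301). Dlg2 had 5.55, 8.94 and 2.6 against 9.86, 11.7 and 6.84 RPKM (-0.96, SE 0.177, adjusted p = 0.00464). Dlg3 had 16.8, 24 and 8.77 against 28.1, 30.0 and 19 RPKM (-0.83, SE 0.156, adjusted p = 0.00497). The groups of Dlg2 and Dlg3 overlapped, while each orbital library was below the dorsal one of its set. Dlg4 had 1.72, 2.36 and 1.82 against 3.01, 2.58 and 3.54 RPKM, without overlap (-0.77, SE 0.206, adjusted p = 0.0229). Dlgap1 had 12.6, 10 and 7.70 against 16.2, 14.6 and 13 RPKM (-0.66, SE 0.139, adjusted p = 0.00850).

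Shank2, a large organizer of the postsynaptic density, had 4.24, 4.80 and 3.54 RPKM in orbital and 6.02, 7.49 and 8.45 in dorsal controls (-0.89, SE 0.193, adjusted p = 0.00938). Its groups, like those of Dlgap1, did not overlap. Homer1 had 5.66, 8.63 and 4.36 against 8.31, 9.61 and 7.97 RPKM (-0.64, SE 0.137, adjusted p = 0.00872). Shank3 had 0.480, 0.802 and 0.483 against 0.670, 1.03 and 0.973 RPKM (-0.72, SE 0.211, adjusted p = 0.0342). Dlgap2 had 2.36, 2.24 and 1.13 against 2.67, 3.94 and 1.6 RPKM (-0.62, SE 0.197, adjusted p = 0.0470). These last 3 overlapped between regions. The count of 17 was 4 without control row 3 (Grm2, Camk2b, Dlg2 and Grm3) and 5 with no row block. Of all genes, 1769 were lower in the main fit, 398 without control row 3 and 165 with no row block. Grm2 and Camk2b passed in all 10 alternatives.

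**Figure D5:**
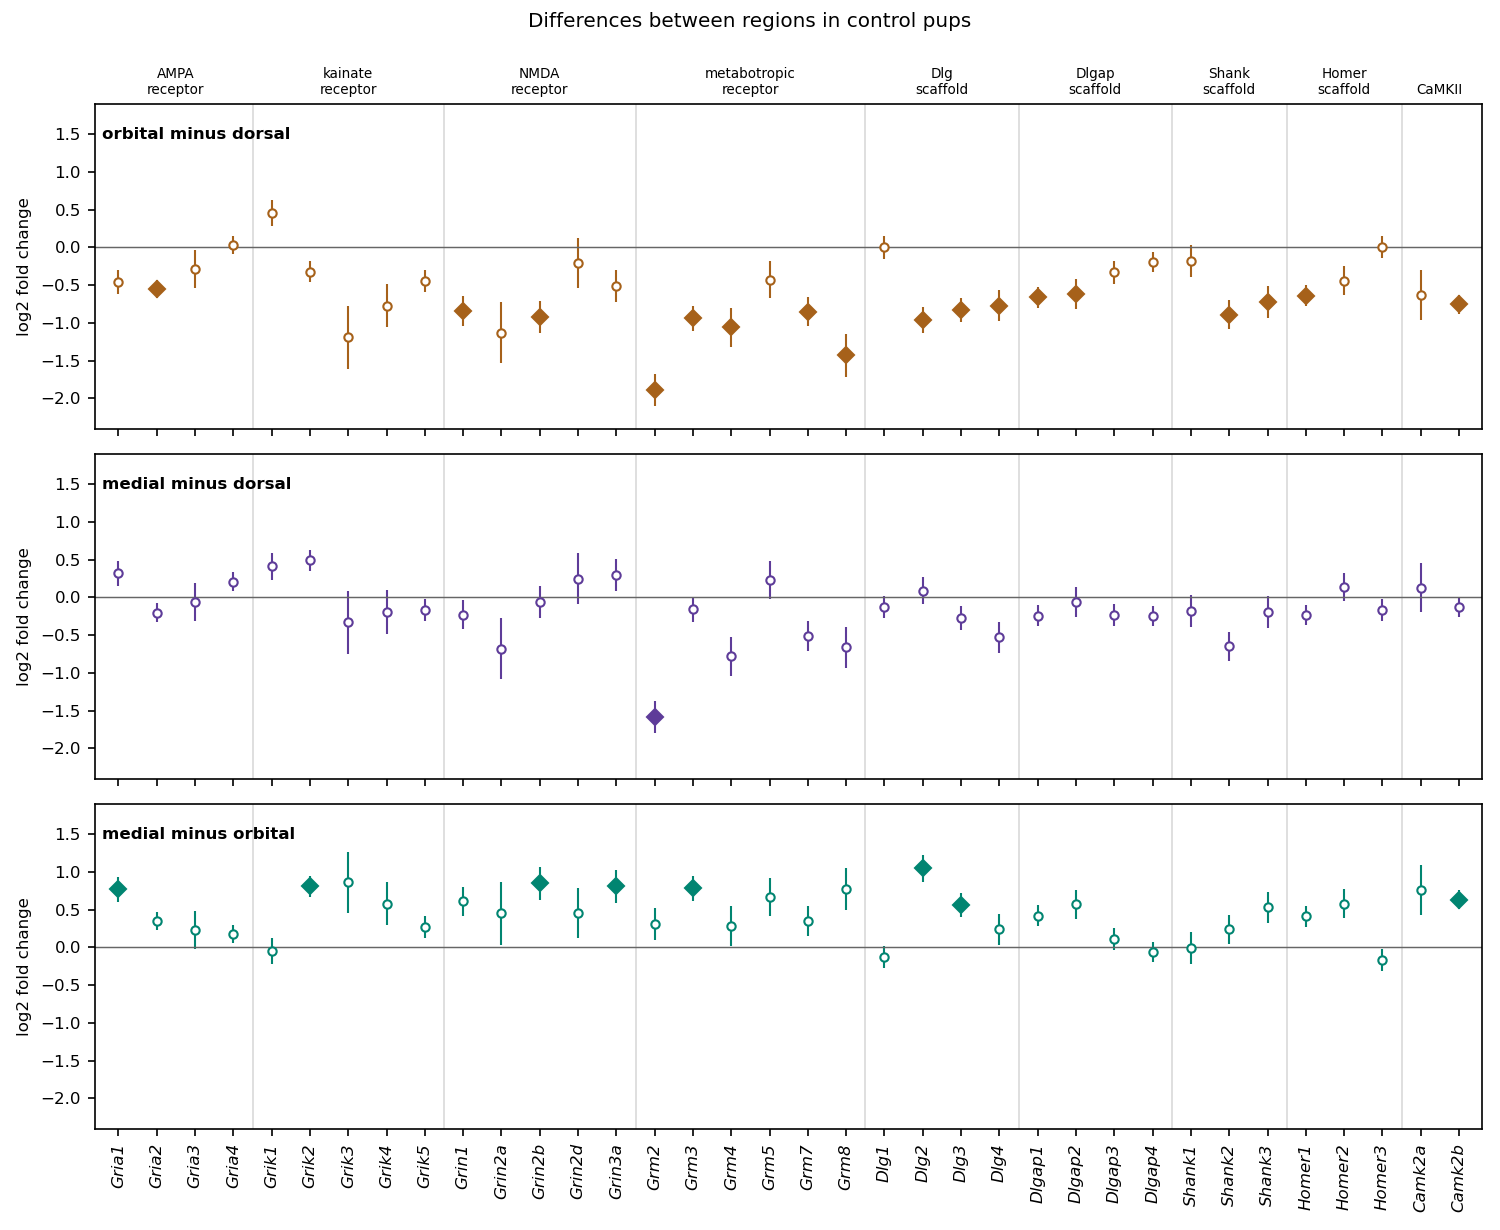
Log2 fold changes between regions in control pups for 36 members, from fits with the row as a block, with bars of 1 SE. Filled diamonds passed the test and open circles did not. Orbital minus dorsal has 17 filled points below 0, medial minus dorsal has 1 (Grm2, -1.58), and medial minus orbital has 8 above 0.

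Medial controls lay above orbital controls in 8 members, against 4.48% of all genes, and below in none. Of the 37 differences 32 were positive, with a median of 0.46 (all genes 0.01). Dlg2 had 8.77, 14.6 and 7.94 RPKM in medial and 5.55, 8.94 and 2.6 in orbital controls (1.05, SE 0.178, adjusted p = 0.00842). Grik2 had 4.31, 5.07 and 3.86 against 2.94, 3.20 and 1.96 RPKM, without overlap (0.81, SE 0.142, adjusted p = 0.00893). Camk2b (0.63, SE 0.125, adjusted p = 0.0128), Gria1 (0.77, SE 0.164, adjusted p = 0.0153) and Grm3 (0.78, SE 0.167, adjusted p = 0.0159) followed, each with separate groups. Gria1 stood at 35.9, 32.2 and 36.3 RPKM in medial and 25.5, 24.6 and 15.7 in orbital controls. Grm3 stood at 30.4, 43.8 and 30.4 against 20.3, 28.5 and 16.0 RPKM. Grin2b had 2, 4.12 and 2.76 against 1.58, 2.35 and 1.25 RPKM (0.85, SE 0.217, adjusted p = 0.0291), and Dlg3 had 19.8, 29.1 and 17.2 against 16.8, 24 and 8.77 (0.56, SE 0.156, adjusted p = 0.0403). Grin3a passed (0.81, SE 0.217, adjusted p = 0.0350) although its medial library of set 1, at 5.41 RPKM, was below the orbital one at 6.02. The count was 2 (Dlg2 and Grik2) without control row 2 or without control row 3, 5 without dKO row 1, 0 with no row block and 16 with no filter on low counts. The count of all genes that were higher moved too, from 840 in the main fit. It was 264 and 86 without control rows 2 and 3, 257 without dKO row 1, 4 with no row block and 1448 of 34890 with no filter.

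Grm2 was the 1 member past the test between medial and dorsal controls, against 0.283% of all genes that were lower. It had 4.86, 9.66 and 5.24 RPKM in medial against 23, 21.7 and 12.8 RPKM in dorsal controls, without overlap (-1.58, SE 0.213, adjusted p = 0.00656; -2.27, -1.17 and -1.31 within the sets). It no longer passed without control row 3 or with no row block. Of the 37 differences 26 were negative, with a median of -0.17. Since the 3 regional comparisons share libraries, they are not independent of each other, nor of the comparisons of genotype.

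Marker levels also differed between the control regions. The neuron sum was 6100 to 7050 CPM in orbital, 7090 to 8340 in medial and 6800 to 8030 in dorsal controls. Of 10 neuron markers 5 were lower in orbital than in dorsal tissue, where 9.44% of all genes were lower by the test. The progenitor sum was 812 to 969 CPM in orbital and 562 to 593 in dorsal controls, with 4 of 12 higher, where 6.39% of all genes were higher in orbital tissue by this test. Microglia markers summed to 206 to 233 CPM against 103 to 116 (5 of 7 higher), and meningeal markers to 1690 to 2450 CPM against 963 to 1150 (2 of 6 higher). Astrocyte markers summed to 1060 to 1860 CPM against 556 to 839, with 1 of 7 higher (Gja1). The part of these differences in the lower levels of the members in orbital tissue was not tested.

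Other genes of the pathway also differed between the control regions. Of 14 auxiliary subunits, 4 were lower in orbital than in dorsal tissue, Shisa7 (-0.94), Neto1 (-0.53), Shisa6 (-1.16) and Neto2 (-0.44), with a list median of -0.02. Of all genes 9.44% were lower there. Neto1 and Neto2 assist kainate receptors, and Shisa6 and Shisa7 assist AMPA receptors. Of 23 other postsynaptic genes 7 were lower and 2 higher, with a list median of -0.52. Of all genes 9.44% were lower and 6.39% higher, so the 2 higher genes lie near the share of all genes. The 4 with the lowest p were Cnksr2 (-0.96), the Dlg4 partner Lrrc7 (-0.98), the actin binder Ppp1r9a (-0.78) and Camk2n1 (0.69), an inhibitor of CaMKII, which was higher in orbital tissue. Of the 7 genes of glutamate supply the transporter gene Slc1a1 was lower (-0.49). Between medial and orbital controls Neto2 (0.49), Ppp1r9a (0.83), Lrrc7 (0.76), Cnksr2 (0.66), Tanc2 (0.90) and Slc1a1 (0.57) were higher in medial tissue and the glutamine synthetase gene Glul (-0.49) was lower.

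The same regional comparisons were made in dKO pups. Between medial and dorsal tissue 3 were lower, against 1.22% of all genes: Grm2, Grm7 and Camk2b. Grm2 had 4.14, 4.45 and 3.57 RPKM in medial and 17.1, 10.6 and 9.88 in dorsal dKO libraries (-1.66, SE 0.214, adjusted p = 0.00171), and for Grm7 the values were 2.80, 1.29 and 1.04 against 5.86, 1.96 and 2.39 (-1.03, SE 0.199, adjusted p = 0.0163). Camk2b had 43.3, 62.8 and 68.8 against 77.2, 89.5 and 79.6 RPKM (-0.57, SE 0.125, adjusted p = 0.0335). The groups of Grm2 and Camk2b were apart, and those of Grm7 overlapped. The count of 3 was 0 without dKO row 1, 1 without dKO row 2, 5 without control row 1 and 1 with no row block. In the same order, 20, 37, 409 and 43 of all genes were lower, against 229 in the main fit.

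Between orbital and dorsal dKO tissue Grm2 and Grm8 were lower, against 0.342% of all genes. Grm2 had 6.27, 5.97 and 4.82 RPKM in orbital dKO libraries, below the 3 dorsal ones (-1.17, SE 0.210, adjusted p = 0.0213). Grm8 had 0.515, 0.390 and 0.114 against 1.24, 0.635 and 0.581 RPKM, also without overlap (-1.43, SE 0.286, adjusted p = 0.0415). Neither passed without control row 2 or any of the dKO rows 1, 2 and 3, or with no row block. Between medial and orbital dKO tissue 0 members passed with edgeR, against 0.016% of all genes, and 28 of 37 differences were negative, with a median of -0.18. At an unadjusted p under 0.05 there were 7 (18.9%) against 7.29% of all genes, and DESeq2 called 0 members, with 2.31% of all genes. Grm5 (-0.76, SE 0.247) and Grin3a (-0.66, SE 0.215) had the lowest p, both at adjusted p = 0.509. Of the other pathway genes, Cnih3, an auxiliary subunit of AMPA receptors, was lower in medial than in dorsal dKO tissue (-0.97, SE 0.151, adjusted p = 0.00548). So were the postsynaptic genes Cnksr2 (-0.79), Nrgn (-2.78) and Grip2 (-0.81), while Camk2n1 was higher there (0.65) and in orbital dKO tissue (0.91).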

How the data were processed

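RNA of 18 libraries was measured as raw counts of fragments per gene, deposited by the authors without normalization. Per the file headers they were counted with featureCounts 1.6.2 in pairs, ignoring strand, against Ensembl 94 models of GRCm38, and STAR 2.6 is named in the submitters' processing notes. Exon overlaps between genes can therefore mix reads. Of the per-sample columns, 18 matched a sample and 6 did not and were not used. Symbols matched 54409 of 54532 genes. No 2 libraries were identical.

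The members and lists were chosen with earlier results of these data known. Counts were fitted in R 4.3.3 with edgeR 4.0.16 (TMM, filterByExpr with a minimum count of 10 and total of 15, quasi-likelihood F tests) over all genes, adjusted by Benjamini-Hochberg with a threshold of 0.05. Genotype was tested with 6 group means and the title prefix, regions and differences of effect with the row as a block, and sums over regions with the prefix (20083 genes). Set values subtract the control's log2 CPM from that of the dKO library, or region from region, after adding a prior count of 2. Beside the summed rows they are means of the regional differences. Named in full are members past the threshold, the most abundant and, in medial tissue, the lowest-p member of each class, and up to 4 past the threshold per other list. Alternatives used DESeq2 1.42.0, limma 3.58.1 and other terms, filters and left-out libraries. The fits were also run on simulated counts drawn with no effect shared by a row. In the data limma put the correlation within rows at 0.363, so the simulation cannot check the genotype test, which has no row term, on this point. Depth gives each member but Grin2a, Grin2c, Grin3b, Grm4 and Grm8 at least 133 fragments per library. Figures used matplotlib 3.10.9. Some marker genes are not reported here.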

Additional observations from a re-analysis of the deposited data

Results flagged for a closer look

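In 4 members the difference between dKO and control pups differed between medial and orbital tissue by the test of the difference itself (edgeR with the row as a block, adjusted over 18730 genes). The medial minus orbital difference of effects was -1.15 for Grik2, -1.47 for Grin3a, -1.23 for Dlg2 and -0.83 for Camk2b on the log2 scale, negative in 3 of 3 sets for each. The sets are the libraries of that same test, so the shared sign is no further evidence. Adjusted p over the 10 alternatives ran from 1.46e-05 to 0.274 for Grik2, 4.72e-06 to 0.237 for Grin3a, 1.63e-05 to 0.421 for Dlg2 and 0.000217 to 0.286 for Camk2b, and each passed in 5 of the 10.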

How the results depend on the processing

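With edgeR, no member count moved with RLE size factors by over 1.5 times. The 2 members lower in medial dKO were 0 with no title prefix, 0 with the 6 medial libraries alone, 1 with a term for sex and 0 to 3 without 1 library. With no filter on low counts, 1 member passed in orbital dKO (Grin2c), 2 and 16 between control medial and dorsal or orbital tissue, 10 and 2 between dKO medial and dorsal or orbital tissue, and 6 and 15 for the differences of effect between orbital and dorsal and between medial and orbital tissue. Of the 34890 genes then tested, 72 were higher in orbital dKO. In control medial tissue 223 were lower than in dorsal and 1448 higher than in orbital tissue. In dKO medial tissue 546 were higher and 623 lower than in dorsal, and 140 lower than in orbital tissue. For the differences of effect, 314 were higher (orbital and dorsal) and 1008 lower (medial and orbital). DESeq2 gave 1 in orbital dKO, 1 (Grm7) in the summed rows, 8 between dKO medial and dorsal tissue, and 2 and 9 for those differences of effect. Between dKO medial and dorsal tissue it called 538 genes higher and 873 lower of 32923. For the difference between medial and orbital effects it called 1156 genes lower of 34328. With no row block, control comparisons gave 0 (medial and dorsal), 5 (orbital and dorsal) and 0 (medial and orbital), dKO comparisons 1 (medial and dorsal) and 0 (orbital and dorsal), and the difference between medial and orbital effects 0. Leaving out each row in turn gave 0 to 1, 4 to 16 and 2 to 8 in controls, 0 to 5 (medial and dorsal) and 0 to 2 (orbital and dorsal) in dKO, and 0 to 13 for the difference between medial and orbital effects. In the last of these, 0 to 912 of all genes were lower. The difference between medial and dorsal effects held 0 members in each alternative run.

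The sign turned in members near 0. In dorsal dKO, Grm3 (-0.32 to 0.21 without 1 library) was 0.28 with a term for sex, 0.10 without control replicate 2 and 0.21 without dKO replicate 3. Shank2 (-0.12 to 0.09) was 0.00 with no filter or a term for sex, 0.03 without control replicate 1 and 0.09 without dKO replicate 2, and Homer1 (-0.26 to 0.02) 0.00 with a term for sex and 0.02 without dKO replicate 1. In orbital dKO without control replicate 3, Dlg3 was -0.17 and Homer1 -0.13, where leaving out each library gave -0.17 to 0.56 and -0.13 to 0.36. The cause was not tested for these shifts.

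Deviations from group means correlated between libraries of the same set at -0.0709 to 0.318, not above 0.1 in each pair, so the set numbers were not taken to pair the samples. With the replicate block in place of the prefix, 3 members passed in medial dKO, Grik2 joining at adjusted p = 0.0474 (0.0474 to 0.526 over its alternatives).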
